A study of Mus musculus with 12 samples.

Results

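The Camk2b locus was examined together with the loci of its 4 relatives Camk2a, Camk2d, Camk2g and Camk4 in ATAC-seq of thymic iNKT cells, which maps accessible chromatin by the insertion of a transposase. A locus was the gene with its flanks of 10 kb, and 67 of the 63309 regions of 500 bp in the table overlapped one of the 5 loci: 13 at Camk2b, 5 at Camk2a, 16 at Camk2d, 12 at Camk2g and 21 at Camk4. Camk2b was picked because regions at it had higher accessibility without Hivep3 in every subset in these same libraries, so its values between the genotypes are a description and carry no test. The other 4 loci were added as members of the same kinase family. Camk2b (ENSMUSG00000057897.14) lies on the minus strand at chr11:5969644-6066362 of mm10, Camk2a (ENSMUSG00000024617.16) at chr18:60925618-60988152, Camk2d (ENSMUSG00000053819.16) at chr3:126596302-126846326, Camk2g (ENSMUSG00000021820.18) on the minus strand at chr14:20734875-20794088 and Camk4 (ENSMUSG00000038128.7) at chr18:32934931-33191228.

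The 12 libraries were from iNKT1, iNKT2 and iNKT17 cells of untreated C57BL/6 mice and of Hivep3-/- mice on the C57BL/6 background, 8 to 9 weeks old, with 2 libraries per subset and genotype. Cells were sorted from pooled thymi as iNKT1 (CD122+ ICOS-), iNKT2 (ICOS+ Izumo1r+ CD138-) or iNKT17 (ICOS+ CD138+), put together for transposition and separated again by ICOS and CD138. The titles number the libraries of a group as mice 1 and 2, although thymi were pooled, so p-values measure the spread between these libraries, which may be partly technical. The part of Hivep3 that is deleted is not given in the sources used here.

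The Camk2 genes encode the alpha (Camk2a), beta (Camk2b), delta (Camk2d) and gamma (Camk2g) subunits of CaMKII, a serine/threonine kinase that is switched on by calcium-bound calmodulin and assembles into large holoenzymes. The alpha and beta subunits are best known from neurons, while the delta and gamma subunits are found in many tissues, T cells included. Camk4 encodes CaMKIV, a single-chain kinase of the same pathway that is abundant in thymocytes and neurons and phosphorylates the transcription factor CREB in the nucleus. In T cells, calcium signals follow engagement of the antigen receptor. Hivep3 encodes a large zinc finger protein whose family is known for binding NF-kB-like sequences.

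Values are log2 of normalized insertions per kb, and a change is a difference of such values. A region was tested where its mean was at least 5 on the linear scale in either compared group, which is also what accessible means here, and it was called where limma gave a Benjamini-Hochberg adjusted p below 0.1 over all tested regions of the table and the change was at least 3-fold. Shares over all tested regions are shares of calls unless another measure is named. For counts at an unadjusted p below 0.05 in limma no such share was taken, and nothing is read from them. In bulk libraries, a region that is open in more cells and a region that is more often open in each cell cannot be told apart.

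Sequence of 3 Camk2b regions is shown here for the comparisons that follow, as 300 bases from the plus strand of GRCm38, with the letters of searched motifs in capitals. The motifs, searched on both strands, were Runt (TGTGGT), T-box (GGTGTGA), ETS (CAGGAAG), bZIP (TGANTCA), NFAT (TTTTCCA), TCF (TCAAAGG) and NF-kB, none of which contains another. The window chr11:6013365-6013664 lies in a Camk2b region that was higher without Hivep3 and holds no repeated sequence, chr11:6017748-6018047 lies in the next region toward the start of the gene, which differed little between the genotypes, and chr11:5998702-5999001 lies in the Camk2b region with the largest difference between subsets.
Camk2b chr11:6013365-6013664: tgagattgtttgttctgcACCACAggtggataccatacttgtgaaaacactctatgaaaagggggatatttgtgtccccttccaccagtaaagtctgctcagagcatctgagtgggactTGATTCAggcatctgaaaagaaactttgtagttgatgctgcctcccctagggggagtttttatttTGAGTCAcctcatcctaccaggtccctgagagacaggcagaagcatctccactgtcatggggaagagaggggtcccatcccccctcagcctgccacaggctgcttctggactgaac
Camk2b chr11:6017748-6018047: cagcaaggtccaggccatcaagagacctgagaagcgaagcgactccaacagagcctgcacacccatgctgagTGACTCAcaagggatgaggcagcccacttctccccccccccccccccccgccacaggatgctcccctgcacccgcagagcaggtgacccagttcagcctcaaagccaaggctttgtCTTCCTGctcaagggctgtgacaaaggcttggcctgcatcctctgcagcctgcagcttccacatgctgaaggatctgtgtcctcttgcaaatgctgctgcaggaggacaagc
Camk2b chr11:5998702-5999001: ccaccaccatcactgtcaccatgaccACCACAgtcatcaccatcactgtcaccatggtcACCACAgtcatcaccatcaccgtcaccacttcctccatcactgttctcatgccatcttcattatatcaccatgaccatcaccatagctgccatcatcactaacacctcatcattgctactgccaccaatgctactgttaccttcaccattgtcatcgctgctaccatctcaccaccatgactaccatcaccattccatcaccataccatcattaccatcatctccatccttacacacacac
The capitals are a Runt match and a pair of bZIP matches in the first, a bZIP and an ETS match in the next, and a pair of Runt matches in the third. Over their full 500 bp, 8 of the 13 Camk2b regions (61.5%) held a Runt match, against 40.2% of all regions, 4 (30.8%) held a bZIP match, against 15.9%, and 1 each held an ETS, a T-box and a TCF match, against 29.1%, 8.57% and 9.55%. None of the 13 held an NFAT or NF-kB match, against 10.1% and 8.6% of all regions. These are matches of letters and not sites.

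At Camk2b, 5 neighbouring regions were at least 3-fold higher in Hivep3-/- than in C57BL/6 cells in each of the 3 subsets, and they were all the regions of the table in the 8.14 kb of chr11:6005620-6013764. Across the 13 regions, the mean was higher in Hivep3-/- cells in 13 regions for iNKT1, 11 for iNKT2 and 12 for iNKT17, with a median change of 0.27 (range 0.05 to 2.35), 0.44 (-0.34 to 3.7) and 0.87 (-0.08 to 4.3). Among accessible regions of the whole table, 0.983%, 0.505% and 0.16% were at least 3-fold higher in iNKT1, iNKT2 and iNKT17 cells, and 12 of 46047 regions accessible in all 3 subsets (0.0261%) were so in all of them, of which the 5 Camk2b regions made up 41.7%. In a window of the same length elsewhere there were at most 3 such regions, on chromosome 12. Since Camk2b was chosen for this contrast, these shares describe the choice and nothing is read from them.

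Averaged over the 5 regions, accessibility in C57BL/6 iNKT1 libraries was 2.47 and 2.19, against 4.46 and 4.42 in Hivep3-/- iNKT1 libraries. In iNKT2 cells the stretch was at 0.27 and 0.25 in C57BL/6 and at 3.19 and 3.51 in Hivep3-/- libraries. The iNKT17 libraries gave 0.06 and 0.55 for C57BL/6 and 3.68 and 3.54 for Hivep3-/- mice. Thus both knockout libraries lay above both C57BL/6 libraries in every subset, and the C57BL/6 level was higher in iNKT1 (2.33 ± 0.2, SD, n = 2) than in iNKT2 (0.26 ± 0.01) and iNKT17 cells (0.3 ± 0.35). The 5 regions had a median change of 2.17 for iNKT1 (1.82 to 2.35), 2.97 for iNKT2 (2.31 to 3.7) and 3.22 for iNKT17 (2.5 to 4.3), whereas that of the other 8 Camk2b regions was 0.09 (0.05 to 0.89), 0.19 (-0.34 to 0.52) and 0.28 (-0.08 to 1.44). The summed accessibility of the iNKT1 marker genes (Tbx21, Il2rb, Nkg7 and Xcl1, with 34 regions), which was 1873 to 2017 in iNKT1 libraries, was 820 to 843 in Hivep3-/- and 858 to 887 in C57BL/6 iNKT2 libraries and 1026 to 1027 and 1009 to 1039 in the iNKT17 libraries. Il2rb did not follow its list. Its log2 mean level in C57BL/6 and Hivep3-/- cells was 5.93 and 5.99 in iNKT1, 5.72 and 5.81 in iNKT2, and 6.2 and 6.21 in iNKT17 cells.

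Within the stretch, the region at chr11:6011912-6012411 had the widest change. It was at 2.75 and 2.65 in C57BL/6 iNKT1 and 4.97 and 5.12 in Hivep3-/- iNKT1 libraries, at -0.55 and -0.10 against 2.89 and 3.87 in iNKT2, and at -1.91 and 0.44 against 3.78 and 3.35 in iNKT17 libraries. This region and chr11:6013265-6013764 overlap the last exon of a processed transcript, Camk2b-212, and the other 3 are intronic. The region at 6013265, whose sequence is shown above, was at 2.55 and 2.56 against 4.41 and 4.34 in iNKT1, 1.06 and 0.17 against 2.89 and 2.95 in iNKT2, and 1.03 and 1.11 against 3.99 and 3.66 in iNKT17 libraries. The genotypes did not overlap in either region.

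The 3 intronic regions gave the same picture. At chr11:6005620-6006119, C57BL/6 and Hivep3-/- libraries were at 2.63 and 2.16 against 4.74 and 4.61 in iNKT1, 0.56 and 0.99 against 3.80 and 3.68 in iNKT2, and 0.97 and 0.64 against 4.03 and 4.01 in iNKT17 cells. At chr11:6007154-6007653 they were at 1.77 and 1.60 against 3.63 and 3.63, 0.36 and -0.16 against 2.47 and 3.29, and 0.39 and 0.44 against 2.84 and 2.99, and this was the lowest of the 5 regions in iNKT1 cells of both genotypes. At chr11:6010730-6011229 the values were 2.65 and 1.97 against 4.54 and 4.42, -0.10 and 0.35 against 3.86 and 3.77, and -0.21 and 0.10 against 3.74 and 3.68. No library of one genotype reached into the range of the other. The share of accessible regions in the whole table with both Hivep3-/- libraries above both C57BL/6 libraries was 25.7% (iNKT1), 27.3% (iNKT2) and 21.9% (iNKT17), and it was so for 8 of 13, 7 of 10 and 11 of 12 accessible Camk2b regions.

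**Figure D1:**
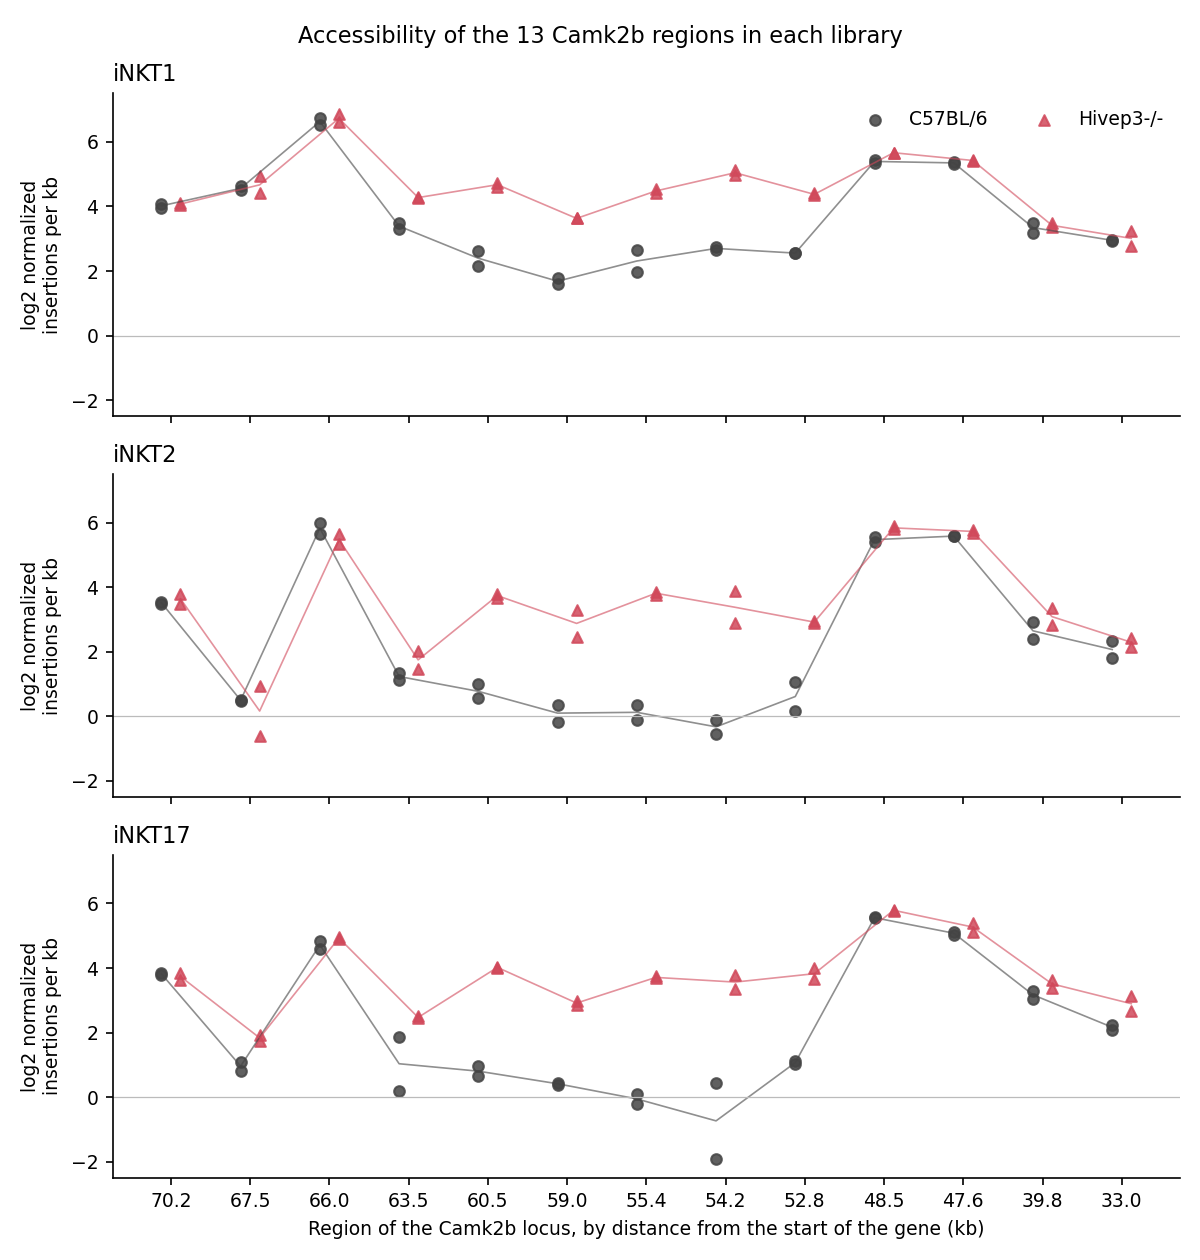
Log2 normalized insertions per kb (vertical axis) of the 13 Camk2b regions, ordered along the chromosome and labelled by distance from the start of the gene in kb, with a panel per subset. Each circle is a C57BL/6 and each triangle a Hivep3-/- library, and lines join group means. The genotypes part over the 5 regions 60.5 to 52.8 kb from the gene start, from a mean of 2.33 to 4.44 in iNKT1, 0.26 to 3.35 in iNKT2 and 0.3 to 3.61 in iNKT17 cells.

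The regions next to the stretch bounded it on both sides. The region just outside the 3-fold limit, chr11:6002576-6003075, was at 3.29 and 3.49 in C57BL/6 and 4.26 and 4.29 in Hivep3-/- iNKT1, 1.13 and 1.34 against 2.03 and 1.47 in iNKT2, and 1.87 and 0.20 against 2.44 and 2.50 in iNKT17 libraries, while the smallest change inside it was 1.82, at 6013265 in iNKT1 cells. On the side of the gene start, chr11:6017648-6018147, also shown above, was at 5.35 and 5.44 against 5.67 and 5.66, 5.55 and 5.40 against 5.89 and 5.79, and 5.55 and 5.57 against 5.81 and 5.77, an offset of less than 1 between all libraries. The only region at a Camk2b promoter, chr11:6000111-6000610 at the start of the transcript Camk2b-213, 66.0 kb into the gene, was the most accessible of the locus in iNKT1 cells of both genotypes. It was at 6.75 and 6.51 against 6.85 and 6.61 in iNKT1, 6.00 and 5.66 against 5.64 and 5.33 in iNKT2, and 4.85 and 4.58 against 4.96 and 4.90 in iNKT17 cells, so that its changes of 0.10, -0.34 and 0.21 did not share a sign. No region of the table overlaps the annotated start of the full-length gene.

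Beyond the locus, 22 regions lay within 200 kb, and none of them was at least 3-fold higher in Hivep3-/- cells in any subset. Their median change was -0.11 for iNKT1 (-1.55 to 0.59), 0.01 for iNKT2 (-1.19 to 0.65) and 0.04 for iNKT17 (-0.67 to 0.88).

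**Figure D2:**
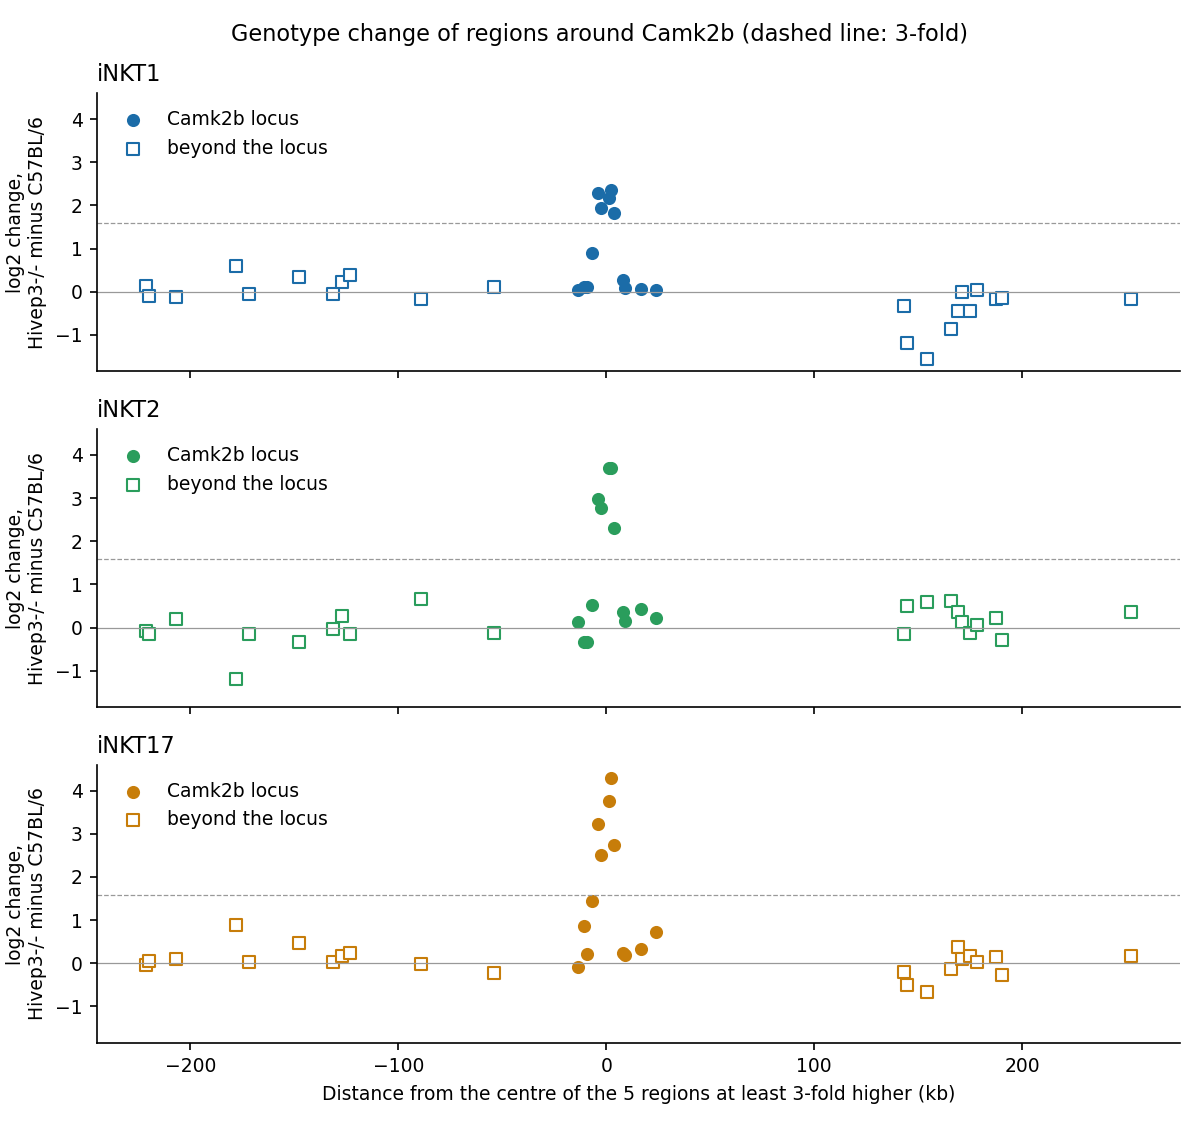
Log2 change between the genotypes (Hivep3-/- minus C57BL/6, vertical axis) of the Camk2b regions (filled circles) and of the 22 regions up to 200 kb beyond the locus (open squares), against distance from the centre of the 5 regions in kb, with a panel per subset. The dashed line marks 3-fold, above which only the 5 regions of the stretch lie in each panel.

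The stretch was unlike the rest of the locus in its sequence. Its regions at 6005620 and 6010730 lie in 2 copies of 756 identical bases in the same orientation, at chr11:6005652-6006407 and chr11:6010760-6011515, with starts 5108 bases apart, which cover 93.6% and 94.0% of these regions. A pair of identical direct repeats around repeat sequence is the layout of a retrotransposon with long terminal repeats, but no repeat annotation was used and the element was not assigned to a family. Of the 50-base words in the regions, the length to which reads had been trimmed, 92.9% at 6005620, 74.3% at 6007154 and 98.7% at 6010730 were found more than once in GRCm38, against 5.1% at 6011912 and 0 at 6013265. Of all 67 regions of the 5 loci, 5 had any repeated word and only these 3 had more than 50% of them. A read end that lies wholly in such a word cannot be assigned to a single copy by its own sequence, and how such reads were handled was not tested.

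The values of mostly unique and of mostly repeated regions of the stretch are set out apart. The 5 regions were grouped because each was at least 3-fold higher in Hivep3-/- cells in every subset. A similar size of the difference was thus favoured by the choice, and the values are a description. A part of read mapping in them was not tested. Averaged over the mostly unique 6011912 and 6013265, accessibility was 2.65 and 2.61 in C57BL/6 against 4.69 and 4.73 in Hivep3-/- iNKT1, 0.26 and 0.03 against 2.89 and 3.41 in iNKT2, and -0.44 and 0.78 against 3.88 and 3.5 in iNKT17 libraries. Averaged over the 3 mostly repeated regions, it was 2.35 and 1.91 against 4.3 and 4.22, 0.28 and 0.39 against 3.38 and 3.58, and 0.39 and 0.39 against 3.54 and 3.56. Soft-masked repeat sequence took up 89.8%, 30.0%, 95.8%, 54.6% and 0% of the 5 regions in chromosome order, against a median of 10.0% over all regions of the table. The GC content was 66.2% with 39 CpG sites at 6007154 and 44.2% to 53.6% in the other 4. A Runt match was present in 3 of the 5 (60.0%), and a bZIP match in 1 (20.0%), the one shown.

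**Figure D3:**
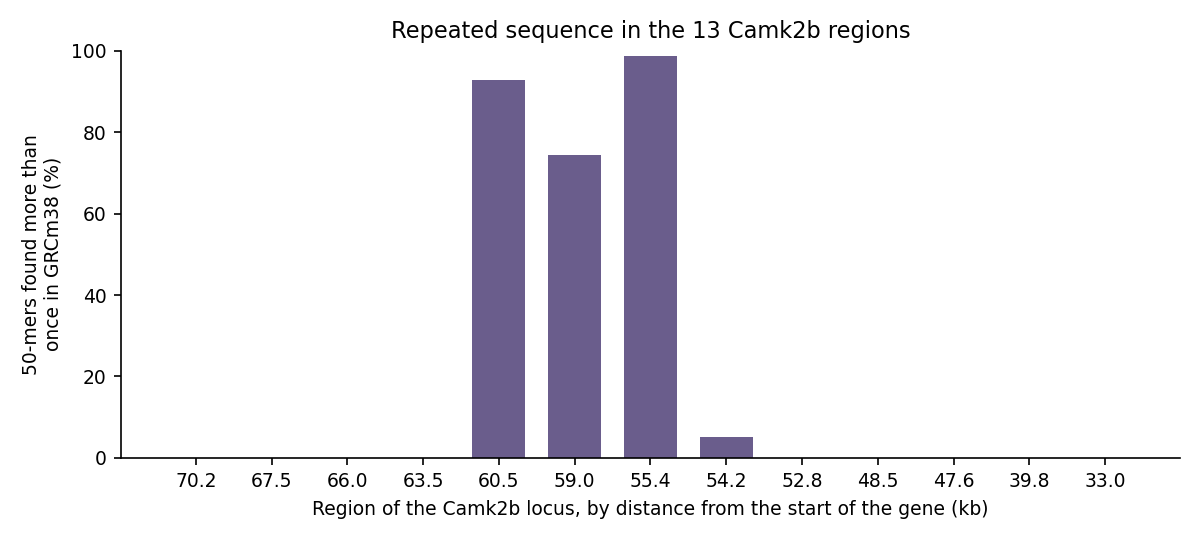
Percent of the 50-base words of each Camk2b region that occur more than once in GRCm38 (bars, from 0), with regions labelled by distance from the start of the gene in kb. Of the 5 regions that were higher without Hivep3, those at 60.5, 59.0 and 55.4 kb are at 92.9%, 74.3% and 98.7%, and those at 54.2 and 52.8 kb at 5.1% and 0.

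The subset comparisons at Camk2b were tested. They were not used to choose it, although the C57BL/6 values in them were. In C57BL/6 cells, 6 of 12 tested Camk2b regions were called higher in iNKT1 than in iNKT2 cells and 6 of 12 higher than in iNKT17 cells, with none called lower, where 7.33% and 9.72% of all tested regions were called higher. Of these calls, all 6 against iNKT2 and 5 of 6 against iNKT17 cells passed the filter through the iNKT1 group alone, which leaves room for a call in that direction only, so the counts are a description. Between iNKT2 and iNKT17 cells none of 5 tested regions was called by limma, with 2 at an unadjusted p below 0.05, against 16.2% called in either direction over all tested regions. The largest difference was at chr11:5998602-5999101, which was at 4.50 and 4.62 in C57BL/6 iNKT1, 0.49 and 0.51 in iNKT2 and 1.10 and 0.82 in iNKT17 libraries. It was 4.06 (SE 0.41, limma adjusted p = 3.92e-06) above iNKT2 and 3.59 (SE 0.41, limma adjusted p = 6.53e-06) above iNKT17 cells. Its Hivep3-/- values were 4.93 and 4.41, -0.61 and 0.94, and 1.74 and 1.93, again high in iNKT1 cells. This is the third sequence shown, with a pair of Runt matches in the window and 5 over the full 500 bp. Short units such as caccat recur along this window, so nothing is read from its matches.

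Regions of the stretch made up most of the other C57BL/6 calls. The iNKT1 level exceeded that of iNKT2 cells by 1.62 at 6005620, 2.18 at 6010730, 3.02 at 6011912 (SE 0.56, limma adjusted p = 0.000584) and 1.95 at 6013265, and that of iNKT17 cells by 1.59 at 6005620, 2.36 at 6010730 and 3.43 at 6011912 (SE 0.56, limma adjusted p = 0.00016). The region at 6002576 gave 2.16 and 2.36, and the promoter region at 6000111 was 1.91 higher in iNKT1 than in iNKT17 cells (SE 0.15, limma adjusted p = 2.44e-07). Some of these calls ended when a single library was left out. Without C57BL/6 iNKT1 replicate 1, the regions at 6005620 and 6010730 were no longer tested in either comparison, as their iNKT1 level came under the filter. Without C57BL/6 iNKT2 replicate 1 the difference at 6005620 fell to 1.41, without iNKT2 replicate 2 that at 6013265 fell to 1.5, and without C57BL/6 iNKT17 replicate 2 those at 6002576 and 6005620 fell to 1.52 and 1.42.

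In Hivep3-/- cells, 3 of 13 tested Camk2b regions were called higher in iNKT1 than in iNKT2 cells and 3 of 13 higher than in iNKT17 cells, where 8.77% and 9.48% of all tested regions were called higher. Of these calls, 2 and 1 passed the filter through the iNKT1 group alone. None of 12 was called between iNKT2 and iNKT17 cells by limma, with 4 at an unadjusted p below 0.05, against 15.6% called in either direction over all tested regions. Of the stretch, only 6011912 was called, 1.66 higher in iNKT1 than in iNKT2 cells (SE 0.56, limma adjusted p = 0.0236), and without Hivep3-/- iNKT2 replicate 1 this difference was 1.17. The calls outside the stretch were 5998602 (4.51 and 2.84), 6002576 (2.53 and 1.80) and, against iNKT17 cells alone, 6000111 (1.80). As locus means over all 13 regions, Camk2b in C57BL/6 mice was at 3.64 ± 0.054 (iNKT1), 2.17 ± 0.071 (iNKT2) and 2.15 ± 0.028 (iNKT17) (SD, n = 2), and the last pair differed by less than their spread. In Hivep3-/- cells the order was iNKT1 at 4.57 ± 0.071, iNKT17 at 3.73 ± 0.022 and iNKT2 at 3.44 ± 0.11.

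**Figure D4:**
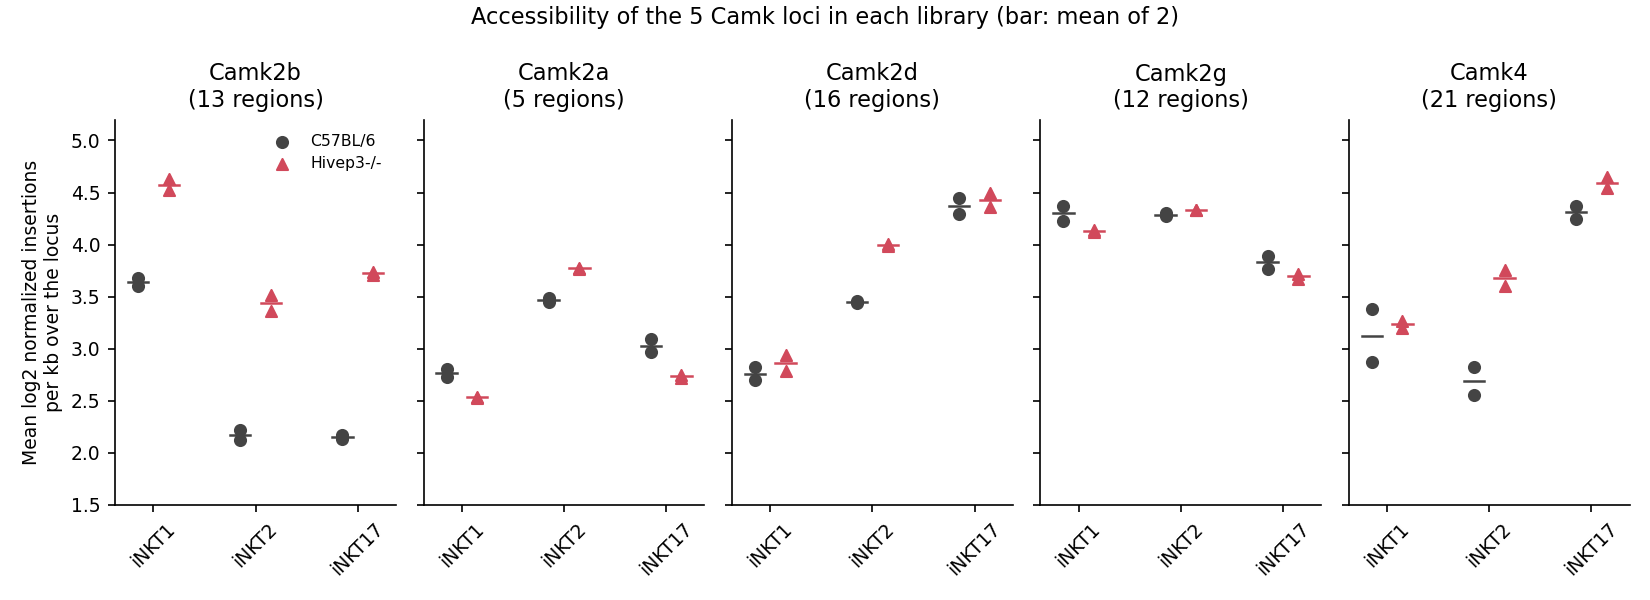
Mean log2 normalized insertions per kb over the regions of each of the 5 loci (vertical axis) in each library, by subset, with circles for C57BL/6, triangles for Hivep3-/- and a bar at the mean of 2 libraries. Camk2b is highest in iNKT1 and Camk2a in iNKT2 cells of both genotypes, Camk2d and Camk4 are highest in iNKT17 cells, and Camk2g stays between 3.67 and 4.37 throughout.

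The other CaMKII genes and Camk4 were not chosen by their change between the genotypes, and that change was tested. None of 40 tested regions of these 4 loci was called in iNKT1 cells by limma, against 1.15% called over all tested regions. Of the 40, 10 were at an unadjusted p below 0.05, for which no share over all tested regions was taken. In iNKT2 cells 4 of 47 were called, all at Camk4 and all higher in Hivep3-/- cells, against 1.68% in either direction and 0.474% higher over all tested regions. All 4 passed the filter through the Hivep3-/- group alone, which leaves room for a call in that direction only, so their shared direction is a description. In iNKT17 cells none of 51 was called by limma, against 0.271% called over all tested regions, and 10 of the 51 were at an unadjusted p below 0.05. The median change over the 4 loci was 0.01, 0.31 and 0.0, beside -0.02, -0.0 and -0.01 over all tested regions.

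At Camk4, the 4 called regions had higher values in iNKT17 than in C57BL/6 iNKT2 libraries. They were called as higher in Hivep3-/- iNKT2 cells, so a shift toward the iNKT17 level was favoured by the choice and is a description. Of 17 tested Camk4 regions, 15 had a higher mean in Hivep3-/- iNKT2 cells, where 49.8% of all tested regions did, with a median change of 0.61. An adjusted p below 0.1 in limma at any size was reached by 11 of the 17, and by 16.4% of all tested regions. Only 11 of the 17 were accessible in both genotypes. The rest passed the filter through the Hivep3-/- group alone and could count only as higher. They all reached an adjusted p below 0.1, so both counts are a description. The region chr18:32966752-32967251 was at 1.93 and 2.03 in C57BL/6 and 3.96 and 4.13 in Hivep3-/- iNKT2 libraries, beside 3.70 and 3.69 against 4.94 and 4.88 in iNKT17 libraries, and its change in iNKT2 cells was 2.06 (SE 0.2, limma adjusted p = 9.3e-05). This region was also higher in Hivep3-/- iNKT1 cells, at 2.23 and 1.82 against 2.98 and 3.15 (1.04, limma adjusted p = 0.0073). Its change in iNKT17 cells was 1.22 (limma adjusted p = 0.00949), and both were under the 3-fold limit. The region chr18:32987427-32987926 was at 0.14 and 0.84 against 2.52 and 2.85 in iNKT2, a change of 2.20 (SE 0.29, limma adjusted p = 0.000625), and at 4.61 and 4.63 against 4.32 and 4.91 in iNKT17 libraries. The region chr18:33084774-33085273 was at 0.27 and 1.23 against 2.39 and 2.65 in iNKT2, a change of 1.77 (SE 0.31, limma adjusted p = 0.00299). The genotypes did not overlap in these 3 regions of iNKT2 cells. Both Hivep3-/- libraries lay above both C57BL/6 libraries in 27.3% of all tested regions. Regions called at 3-fold had little room to overlap, so this is a description.

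Another region, chr18:32990008-32990507, named after its value was seen, was at 2.21 and 1.11 against 3.08 and 3.46 in iNKT2 libraries, a change of 1.61 (SE 0.36, limma adjusted p = 0.0123). Its call was lost without C57BL/6 iNKT2 replicate 2, at 1.06, or without Hivep3-/- iNKT2 replicate 2, at 1.42, and that of 33084774 was lost without C57BL/6 iNKT2 replicate 1, at 1.29. With 1 added to the linear values before the logarithm 2 of the 4 calls were left, and with 5 added none. Of markers of iNKT17 cells, Ccr6 had a log2 mean level over its regions of 0.38 in C57BL/6 and -0.06 in Hivep3-/- iNKT2 cells (3.98 and 4.21 in iNKT17 cells), Il23r of 0.25 and 0.47 (4.36 and 4.5) and Sdc1 of 2.25 and 2.25 (5.0 and 5.04). Their part in the Camk4 change was not tested. The region with the largest difference between subsets at Camk4, chr18:33000409-33000908, was at -1.94 and -3.12 in C57BL/6 and -1.72 and -0.41 in Hivep3-/- iNKT2 libraries, far below the 4.99 to 5.02 of the 4 iNKT17 libraries.

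**Figure D5:**
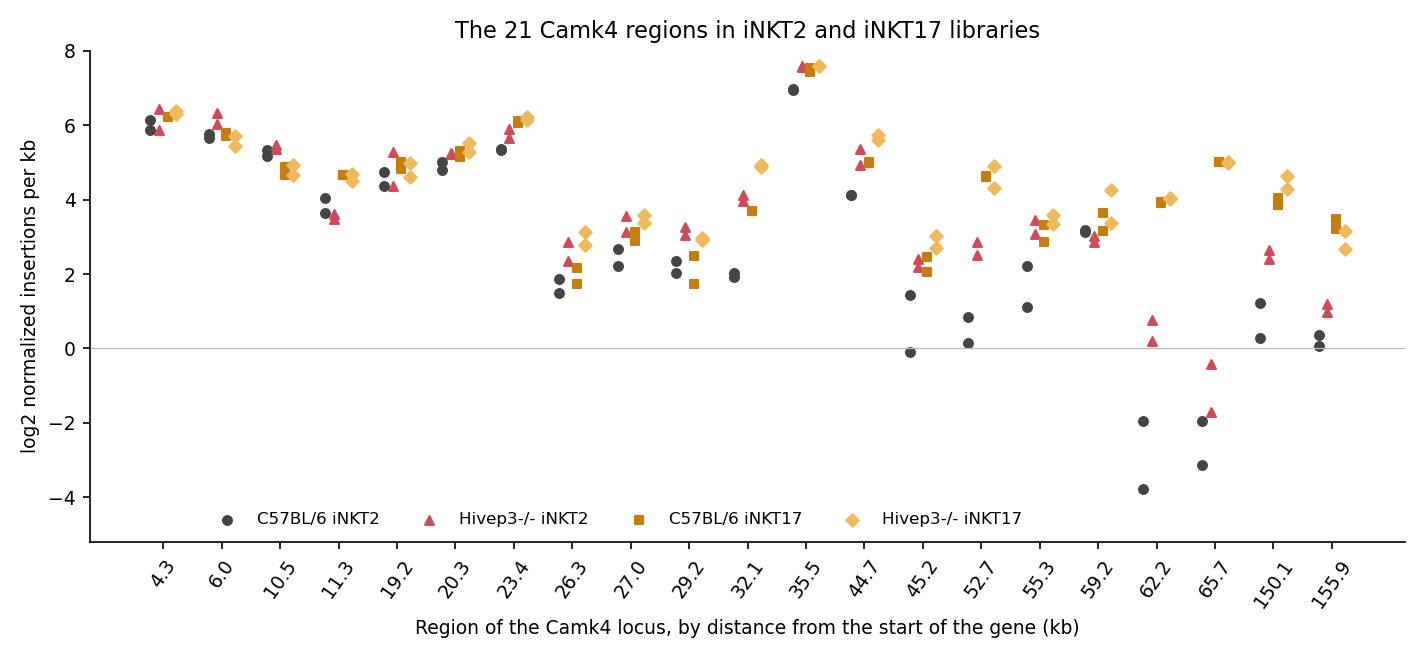
Log2 normalized insertions per kb (vertical axis) of the 21 Camk4 regions in the iNKT2 and iNKT17 libraries, by distance from the start of the gene in kb. Each symbol is a library. At 32.1, 52.7, 55.3 and 150.1 kb the Hivep3-/- iNKT2 libraries lie above those of C57BL/6, and at 65.7 kb all iNKT2 libraries lie between -3.12 and -0.41, below the iNKT17 libraries.

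The change between the genotypes was also compared between subsets at the 4 loci, of which Camk4 has the most regions. The change in iNKT1 cells differed from that in iNKT2 cells at 2 of 49 tested regions of the 4 loci (4.1%). This is near the 3.06% called over all tested regions. Both regions were at Camk4. These were 32987427, with a difference of -2.69 (SE 0.41, limma adjusted p = 0.0029) and iNKT1 values of 1.77 and 1.69 against 1.14 and 1.33, and 33084774, with -1.87 (SE 0.43, limma adjusted p = 0.0221), which was -1.39 and no longer called without C57BL/6 iNKT2 replicate 1. Between iNKT2 and iNKT17 cells 3 of 54 were called, against 1.02%. They were 32987427 (2.20, SE 0.41, limma adjusted p = 0.0232), the Camk2a region chr18:60991295-60991794 and the Camk4 region chr18:32996930-32997429. This made 1 of 5 tested regions at Camk2a and 2 of 21 at Camk4. The difference at 32996930, 3.24, fell to 2.32 without C57BL/6 iNKT2 replicate 2. Between iNKT1 and iNKT17 cells none of 52 was called by limma, against 1.42% called over all tested regions, and 10 of the 52 were at an unadjusted p below 0.05.

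At an annotated start of Camk4, 4.3 kb into the gene, accessibility was high in every library. This promoter region, chr18:32939014-32939513, which also overlaps the antisense gene 2310026I22Rik so that their signal cannot be told apart, ranged from 5.87 to 6.44, and the most accessible Camk4 region, chr18:32970232-32970731 in an intron, from 6.95 to 7.60. Other introns separated the subsets. In C57BL/6 cells 7 of 20 tested Camk4 regions were called between iNKT1 and iNKT17, 6 of 18 between iNKT2 and iNKT17 and 2 of 13 between iNKT1 and iNKT2 cells, where 20.5%, 16.2% and 16.0% of all tested regions were called. Each of these calls passed the filter through its higher group alone, which leaves room for a call in that direction only. Their directions are thus a description. The region at 33000409 was 6.13 lower in iNKT1 and 7.54 lower in iNKT2 than in iNKT17 cells (SE 0.73, limma adjusted p = 1.01e-05 and 2.59e-06). Next came 32996930, by -4.80 and -6.79, chr18:33090553-33091052, by -5.17 and -3.14, and 32987427, by -2.89 and -4.13. Values in the lower group of these regions reach down to -3.79, at or near the lowest values of the libraries, where the size of a log2 change rests on few insertions.

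A few Camk4 regions went the other way. The region chr18:32961027-32961526 was at 3.88 and 3.51 in C57BL/6 iNKT1, 1.86 and 1.48 in iNKT2 and 2.16 and 1.74 in iNKT17 libraries, 2.02 above iNKT2 cells (SE 0.28, limma adjusted p = 5.65e-05). The other iNKT1 to iNKT2 call, 1.69 at chr18:32979911-32980410, was 0.92 and lost without C57BL/6 iNKT2 replicate 2, and the region was not tested without C57BL/6 iNKT1 replicate 1. In Hivep3-/- cells the calls were 7 of 21, 4 of 21 and 1 of 18 in the same order, where 19.3%, 15.6% and 17.3% of all tested regions were called, and the last was chr18:32993922-32994421, 2.13 higher in iNKT1 than in iNKT2 cells (SE 0.25, limma adjusted p = 1.1e-05). Of these Hivep3-/- calls, 5, 2 and 0 passed the filter through 1 group alone. As locus means, Camk4 was at 4.31 ± 0.082 in iNKT17, 3.13 ± 0.36 in iNKT1 and 2.69 ± 0.18 in iNKT2 cells of C57BL/6 mice, of which the last pair nearly met (lowest iNKT1 library 2.87, highest iNKT2 library 2.82), and at 4.59 ± 0.078, 3.24 ± 0.05 and 3.68 ± 0.11 in Hivep3-/- cells.

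Camk2d, the delta subunit, had its highest locus mean in iNKT17 cells, through regions away from its promoter. The promoter region chr3:126596102-126596601 ranged from 6.69 to 7.03 over the 12 libraries. In C57BL/6 cells 7 of 15 tested regions were called between iNKT1 and iNKT17, 6 of 13 between iNKT1 and iNKT2 and 5 of 15 between iNKT2 and iNKT17 cells, where 20.5%, 16.0% and 16.2% of all tested regions were called. Of these calls, 5, 5 and 3 passed the filter through 1 group alone, which leaves room for a call in that direction only. The intronic region chr3:126628323-126628822 was at 2.08 and 2.16 in iNKT1, 5.09 and 5.32 in iNKT2 and 5.51 and 5.50 in iNKT17 libraries, 3.08 and 3.39 lower in iNKT1 cells (SE 0.16, limma adjusted p = 3.07e-08 and 3.53e-09). It was thus low in iNKT1 cells alone, as were chr3:126589536-126590035 upstream of the gene (2.89 below iNKT2 and 2.04 below iNKT17 cells) and chr3:126834764-126835263 (2.04 and 2.43).

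Other Camk2d regions were high in iNKT17 cells. The region chr3:126650312-126650811 was at 1.02 and 1.74 in C57BL/6 iNKT1, 2.51 and 2.09 in iNKT2 and 4.61 and 4.76 in iNKT17 libraries, so that iNKT1 and iNKT2 cells lay 3.31 and 2.38 lower (SE 0.26, limma adjusted p = 2.1e-07 and 6.25e-06). The region chr3:126663471-126663970 was 2.04 lower in iNKT2 than in iNKT17 cells. A region low in iNKT2 cells, chr3:126690544-126691043, was 1.78 higher in iNKT1 than in iNKT2 cells and 1.68 higher in iNKT17 cells, which fell to 1.51 and 1.4 and were lost without C57BL/6 iNKT2 replicate 1. In Hivep3-/- cells the counts were 5 of 15, 6 of 14 and 3 of 16, where 19.3%, 17.3% and 15.6% of all tested regions were called, and 126650312 was again lower in iNKT1 than in iNKT17 cells, by 3.06. In each of these comparisons, 3 calls passed the filter through 1 group alone. Also in Hivep3-/- cells, 126628323 was 3.11 and chr3:126630410-126630909 was 2.92 lower in iNKT1 than in iNKT2 cells. The largest Hivep3-/- difference, -5.04 between iNKT1 and iNKT17 cells at chr3:126681045-126681544, rests on iNKT1 values of -3.12 and -1.38 beside 3.01 and 2.56.

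Between the genotypes no Camk2d region was called by limma, with 5 of 11 (iNKT1), 7 of 13 (iNKT2) and 1 of 16 (iNKT17) tested regions at an unadjusted p below 0.05. In iNKT2 cells 12 of 13 had a higher mean in Hivep3-/- mice, against 49.8% of all tested regions, with a median change of 0.31. Of the 13, 12 were accessible in both genotypes, and the other passed the filter through the Hivep3-/- group alone. An adjusted p below 0.1 at any size was reached by 6 of the 13, against 16.4%. The locus mean went from 3.45 ± 0.011 to 4.0 ± 0.019 in iNKT2 cells, beside 2.76 ± 0.084 to 2.87 ± 0.1 in iNKT1 and 4.37 ± 0.11 to 4.43 ± 0.098 in iNKT17 cells.

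Camk2g, the gamma subunit, had a single call in each comparison of C57BL/6 subsets. The region at its promoter, chr14:20793798-20794297, which also overlaps the promoter of the lincRNA Gm30108, ranged from 4.96 to 6.17. In C57BL/6 cells 1 of 12 tested regions was called between iNKT1 and iNKT2, 1 of 10 between iNKT1 and iNKT17 and 1 of 11 between iNKT2 and iNKT17 cells, where 16.0%, 20.5% and 16.2% of all tested regions were called. Each of these calls passed the filter through its higher group alone, so their directions are a description. The region chr14:20766478-20766977, at an internal start of the gene, was at 3.41 and 3.72 in iNKT1, 1.91 and 2.09 in iNKT2 and 1.60 and 1.25 in iNKT17 libraries, 2.14 above iNKT17 cells (SE 0.27, limma adjusted p = 1.79e-05). The other called region, chr14:20725900-20726399, lies at a promoter of the neighbouring gene Ndst2 and was high in iNKT2 cells, by 1.71 over iNKT1 and 1.59 over iNKT17 cells. These differences fell to 1.45 and were lost without C57BL/6 iNKT1 replicate 1, to 1.54 and 1.42 without iNKT2 replicate 1, and to 1.13 without iNKT17 replicate 2. In Hivep3-/- cells it was 3.23 and 2.42 higher in iNKT2 cells, and chr14:20765960-20766459, at another internal start, was 1.67 higher in iNKT1 than in iNKT17 cells (SE 0.14, limma adjusted p = 3.97e-07), as was 20766478 by 1.81. Both of the latter fell to 1.56 without Hivep3-/- iNKT17 replicate 1, under the 3-fold limit. Of the Hivep3-/- calls, only that at 20765960 passed the filter in both compared groups. No Camk2g region was called between the genotypes by limma, with 1, 2 and 4 at an unadjusted p below 0.05 in iNKT1, iNKT2 and iNKT17 cells.

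Camk2a, the alpha subunit, had 5 regions and none at an annotated promoter. Its region chr18:60952365-60952864 was at 2.13 and 2.30 in C57BL/6 iNKT1, 4.70 and 4.76 in iNKT2 and 2.62 and 3.30 in iNKT17 libraries, and stood 2.52 above iNKT1 (SE 0.22, limma adjusted p = 1.09e-06) and 1.77 above iNKT17 cells (SE 0.22, limma adjusted p = 1.89e-05). The latter fell to 1.43 and was lost without C57BL/6 iNKT17 replicate 1. Its Hivep3-/- values of 2.92 and 3.10, 5.31 and 5.26, and 2.73 and 2.87 kept iNKT2 cells highest, by 2.27 and 2.48. The region chr18:60973332-60973831 was 1.70 higher in Hivep3-/- iNKT2 than iNKT1 cells, a difference that was 1.57 without Hivep3-/- iNKT1 replicate 1, under the 3-fold limit. This call, and the C57BL/6 call of 60952365 over iNKT1 cells, passed the filter through the iNKT2 group alone.

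The intergenic region chr18:60991295-60991794 past the end of Camk2a changed in opposite directions in 2 subsets. It was at 2.41 and 2.22 in C57BL/6 and 3.40 and 3.63 in Hivep3-/- iNKT2 libraries, and at 3.08 and 2.45 against 1.82 and 1.47 in iNKT17 libraries. The difference between these changes was 2.32 (SE 0.42, limma adjusted p = 0.0197), while iNKT1 libraries overlapped at 2.35 and 1.90 against 2.13 and 1.76. No Camk2a region was called between the genotypes by limma, with 3 of 4, 2 of 5 and 1 of 5 tested regions at an unadjusted p below 0.05 in iNKT1, iNKT2 and iNKT17 cells.

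Other genes of calcium and calmodulin signalling were taken from a list. Of the 327 regions of 32 such genes, 4 of 302 tested regions were called higher in Hivep3-/- iNKT1 cells (1.32%), 2 higher and 1 lower of 294 in iNKT2 cells (1.02%) and 1 higher of 276 in iNKT17 cells (0.36%), beside 1.15%, 1.68% and 0.271% over all tested regions, and the median changes were -0.05, 0.03 and 0.05. Camkk2, the kinase that activates CaMKIV, had a region called higher in iNKT1 cells (chr5:122745225-122745724, from 0.92 and 0.91 to 2.70 and 2.59, a change of 1.74, limma adjusted p = 0.00523) and another called lower in iNKT2 cells (chr5:122754380-122754879, from 2.45 and 3.14 to -0.40 and -1.01, a change of -3.50, limma adjusted p = 0.00418). The region at Crem, a CREB-related transcription factor, was called higher by 1.79 in both iNKT2 and iNKT17 cells (chr18:3263602-3264101, limma adjusted p = 0.0052 and 0.0189). The remaining calls were Camk1d, a CaMKI kinase, in iNKT2 cells (1.73, limma adjusted p = 0.00164), and in iNKT1 cells Mef2d, a transcription factor regulated by calcium (1.61, limma adjusted p = 0.0327), Calm2, a calmodulin gene (1.63, limma adjusted p = 0.0993), and Stim2, a calcium sensor of the endoplasmic reticulum (2.99, limma adjusted p = 0.0824). All calls of this list passed the filter through their higher group alone. That leaves room for a call in that direction only, so their directions are a description. Most of these calls were lost when a single library was left out. The iNKT1 count of 4 became 1 without C57BL/6 replicate 1 and without either Hivep3-/- replicate and 2 without C57BL/6 replicate 2, with Calm2 and Stim2 lost in each of these 4 fits and Mef2d in 3. The iNKT2 count of 3 became 1 without C57BL/6 iNKT2 replicate 2, where Camk1d and Crem fell to 1.5 and 1.57, and 4 without any other library of these groups, although the Crem region was not tested without Hivep3-/- iNKT2 replicate 2. The iNKT17 call of Crem was lost without C57BL/6 iNKT17 replicate 1, at 1.65, and both Camkk2 calls were kept in each fit.

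Among 10007 protein-coding loci with 3 or more regions, those whose locus mean was most like that of Camk2b over the 12 libraries were Slc20a1 (r = 0.97), Pde4a (r = 0.953), Tgoln1 (r = 0.95), Jak1 (r = 0.946) and Zdhhc18 (r = 0.942). Slc20a1, a phosphate transporter, was at 4.84 and 4.83 in C57BL/6 and 5.07 and 5.08 in Hivep3-/- iNKT1, 4.3 and 4.43 against 4.69 and 4.59 in iNKT2, and 4.27 and 4.32 against 4.86 and 4.75 in iNKT17 libraries. The libraries share subset and genotype, so the correlations are a description. The other family members were not alike, at 0.052 for Camk2g, 0.015 for Camk4, -0.434 for Camk2d and -0.536 for Camk2a.

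The labels were checked on the markers of the subsets and on the targeted gene. The lists were highest in their own subset, at 1873 to 2017 against 820 to 1039 for iNKT1 and 4261 to 4756 against 2286 to 3492 for iNKT2 markers, and the iNKT17 markers named above were highest in iNKT17 cells. Within the iNKT1 list, Il2rb was highest in iNKT17 cells of both genotypes. Regions near B cell, myeloid and double positive thymocyte genes summed to 388 to 488, 81 to 219 and 278 to 348, and Csf1r, Rag1 and Cd8a had no region. The Hivep3 locus (chr4:119733784-120138045, 21 regions) had means of 3.46 and 3.51 in C57BL/6 against 3.82 and 3.87 in Hivep3-/- iNKT1, 3.38 and 3.44 against 3.38 and 3.35 in iNKT2, and 2.14 and 2.15 against 2.12 and 2.57 in iNKT17 libraries. None of its 20, 18 and 12 tested regions was called between the genotypes by limma, with 5, 3 and 5 at an unadjusted p below 0.05, so these values do not check the genotype labels. The depth of the libraries is not recoverable from the table, and the number of distinct low values, which grows with depth, ran from 73 to 491. In iNKT1 libraries this number was 139 and 170 for C57BL/6 and 227 and 491 for Hivep3-/- mice. It was 219 and 159 against 91 and 118 in iNKT2 and 142 and 134 against 85 and 73 in iNKT17 libraries. It thus separated the genotypes in every subset, and its part in the changes was not tested.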

How the data were processed

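ATAC-seq of 12 libraries (3 iNKT subsets, 2 genotypes, 2 libraries each) was analysed. According to the study, reads were trimmed to 50 bp (Trimmomatic 0.39, per the submitters' notes), mapped to mm10 with the ENCODE pipeline, counted in 500 bp regions merged with chromVAR and normalized with voom. The deposited values are the authors' log2 normalized insertions per kb. Library depth and the handling of reads with several alignments are not given in the sources used here.

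Genes were taken from GENCODE vM21 (GRCm38.p6), and a promoter is within 1000 bp of an annotated start. One mean per group was fitted to all 12 libraries in limma 3.58.1 (R 4.3.3) with a variance trend (6 residual and 7.17 prior degrees of freedom), and contrasts compared genotypes within subsets, subsets within genotypes and genotype changes between subsets. The script was tested on simulated data. Tables, sequences and plots were made with Python 3.11.15, numpy 2.4.6, pandas 2.3.3, pysam 0.24.0, samtools 1.23.1 and matplotlib 3.10.9.

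The members, gene lists and tests were chosen with earlier results of these data known. Named at Camk2b are its promoter regions and the 6 regions with the largest mean genotype change, plus the regions called between subsets and the next region toward the gene start. Named at the other loci are the promoter region with the highest mean and up to 3 called regions per comparison with the largest change, and of the 32 calcium and calmodulin genes up to 5 called regions per subset. Some items that these rules or the marker lists name are not reported here. The comparison of repeated 50-base words, the windows of 300 bp shown as sequence and the values without mostly repeated regions were chosen after the data were seen. The titles number mice, and libraries of 1 genotype with the same number deviated together from their group means (correlations 0.12 to 0.167), so a fit with this number as a block was run. Alternatives were other filters, added constants, quantile normalization, wider loci and leaving out each library.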

Additional observations from a re-analysis of the deposited data

Results flagged for a closer look

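The change between the genotypes differed between subsets in 5 tests of single regions at the other Camk loci, each by an interaction contrast in limma with 2 libraries per group. At Camk4 chr18:32987427-32987926 the change in iNKT1 cells was 2.69 below that in iNKT2 cells (difference -2.69, adjusted p = 0.0029), and the change in iNKT2 cells exceeded that in iNKT17 cells by 2.2 (adjusted p = 0.0232). At Camk4 chr18:33084774-33085273 the change in iNKT1 minus that in iNKT2 cells was -1.87 (adjusted p = 0.0221). At the region chr18:60991295-60991794 beyond Camk2a, the change in iNKT2 minus that in iNKT17 cells was 2.32 (adjusted p = 0.0197), with Hivep3-/- libraries above C57BL/6 libraries in iNKT2 and below them in iNKT17 cells. At Camk4 chr18:32996930-32997429 the same difference was 3.24 (SE 0.89, adjusted p = 0.0947). There, C57BL/6 iNKT2 libraries were at -1.94 and -3.79 and Hivep3-/- iNKT2 libraries at 0.20 and 0.76, all lower than the 3.90 to 4.03 of the iNKT17 libraries, and the call was lost in 7 of the 8 fits that left out a library of these groups, with differences from 2.32 to 3.52.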

How the results depend on the processing

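No Camk2b median and no called change of a single region reversed its sign under the alternatives in which it was recomputed. Counts of calls have no direction, and changes called at 3-fold had little room to reverse. Of 225 recomputed counts and medians, 191 stayed within 1.5 times the reported count or within the replicate spread. There were 99 calls, each of a region in a comparison, and of their 1192 recomputed values 1068 stayed called. Fits in which a region fell under the filter were left out of these numbers. Of the 99 calls, 34 held under every alternative in which they were tested. Adding a constant to the linear values, which pulls low values together, lowered the counts. With 1 added, the counts were 2 instead of 4 for the 4 loci between genotypes in iNKT2 cells, 9 instead of 16 and 8 instead of 13 for the 5 loci between iNKT1 and iNKT2 cells of C57BL/6 and Hivep3-/- mice, 3 instead of 5 for the differences between subsets, and 1, 1 and 0 instead of 4, 3 and 1 for the calcium and calmodulin genes in iNKT1, iNKT2 and iNKT17 cells. With 5 added they were 0 for the 4 loci in iNKT2 cells, 3, 8 and 7 instead of 16, 21 and 13 between the subsets of C57BL/6 mice (iNKT1 and iNKT2, iNKT1 and iNKT17, iNKT2 and iNKT17), 4, 9 and 3 instead of 13, 17 and 10 in Hivep3-/- mice, 0 for the differences between subsets and 0 in each subset for the calcium and calmodulin genes. Without the filter, 1 instead of 0 regions of the 4 loci was called in iNKT1 cells, 8 instead of 5 differed between subsets, and 6 and 3 regions of the calcium and calmodulin genes were called in iNKT2 and iNKT17 cells. With a filter on the mean of all libraries these genes gave 0, 1 and 0 calls, with quantile normalization 2 in iNKT1 cells, and with loci of 50 kb 7 in iNKT2 cells. Leaving out each library gave 0 to 0, 3 to 5 and 0 to 0 calls for the 4 loci, Camk2b medians of 0.23 to 0.37, 0.29 to 0.47 and 0.73 to 1.01, subset counts of 13 to 16, 18 to 20 and 12 to 15 in C57BL/6 and 14 to 15, 17 to 19 and 10 to 12 in Hivep3-/- mice, 4 to 8 differences between subsets, and 1 to 2, 1 to 4 and 0 to 1 calls for the calcium and calmodulin genes; a group left with 1 library was assumed to vary like the others. The fits with a replicate block, within a genotype or across genotypes, left the Camk2b medians at 0.27, 0.44 and 0.87 and moved no count by over 1.5 times (11 between iNKT2 and iNKT17 cells of Hivep3-/- mice, 6 differences between subsets). Across genotypes, libraries with the same number and subset correlated with 0.171, 0.145 and 0.113, although the labels do not say what a number shares there. Without mostly repeated regions, an alternative chosen after seeing the data, the Camk2b medians were 0.11, 0.29 and 0.53 and the subset counts 14, 19 and 13 in C57BL/6 and 13, 17 and 10 in Hivep3-/- mice. With 2 libraries per group and unknown depth, low values are the least certain.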
